A study of Mus musculus with 3 samples.

Results

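The hypoxia and glycolysis module described here is a list of 33 genes, matched by symbol among the 31017 gene symbols of the count tables, and all 33 were found. Its members are induced by low oxygen, carry glucose carbon from uptake to lactate export, or do both. They were followed gene by gene through the cell classes of 3 single-cell libraries made from the calvaria, the bone of the skull roof. Aldoa was listed under 2 gene identifiers, which were added together.

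All mice were C57BL/6, 8 weeks old. The control library came from a calvaria that carried no tumour. For the scratch-negative library, described by the submitters as pre-invasive, HNM007 cells, a mouse squamous carcinoma line, were placed on the skull with the bone surface untouched. For the scratch-positive library, described as invasive, the surface was first scraped with a 21 G needle, a step that strips away the periosteum, which covers bone. Samples were collected 1 week after implantation and the tumour mass was cut off. Live CD45+ and CD45- cells were then mixed 1:1, so the ratio of immune to other cells was set by the sort. Each group had 1 library, so no difference between groups could be tested, and no scratched calvaria without tumour was analysed here.

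Cells sense oxygen through prolyl hydroxylases of the Egln family, which mark the alpha subunits of hypoxia-inducible factor (HIF) for destruction through the von Hippel-Lindau protein. When oxygen is short, HIF accumulates and binds DNA at short elements built around ACGTG or GCGTG. Its classical targets raise glucose uptake and glycolysis, steer pyruvate away from mitochondria, export lactate and protons, remove mitochondria, and modify collagen. Tumours, marrow and healing bone are tissues in which this response is well known.

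Promoters of 6 members are shown because they belong to the genes on which the results below turn: Car9, Egln3, Bnip3 and Slc16a3 were among the members with the largest differences between the tumour-bearing libraries in the Crabp1/Tagln-led cells described below, Pgk1 stands for the glycolytic enzymes, and Pfkfb4 was the 1 member called the other way there. Each line holds the 250 bases before the annotated start, 5′ to 3′ on the strand of the gene, from RefSeq promoters of build GRCm38.p6. Capitals mark ACGTG or its reverse complement CACGT. Car9 (chr4:43506776-43507025, plus strand) holds 1 such stretch, Egln3 (chr12:54203875-54204124, minus strand) holds 1, and Bnip3 (chr7:138909507-138909756, minus strand) holds a palindrome read on both strands. Slc16a3 (chr11:120948817-120949066, plus strand) and Pgk1 (chrX:106186850-106187099, plus strand) hold 2 each, and Pfkfb4 (chr9:108991652-108991901, plus strand) holds 0. The other core, GCGTG, is not marked. Counted on either strand, it occurs 1 time in the Pfkfb4 line and 3 times in the Bnip3 line. The Car9, Egln3, Slc16a3 and Pgk1 lines hold 0 of it.
Car9: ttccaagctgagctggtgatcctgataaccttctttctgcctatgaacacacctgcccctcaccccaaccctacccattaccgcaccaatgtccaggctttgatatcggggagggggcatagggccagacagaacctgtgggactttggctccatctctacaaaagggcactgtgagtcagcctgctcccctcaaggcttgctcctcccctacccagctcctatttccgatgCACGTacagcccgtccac
Egln3: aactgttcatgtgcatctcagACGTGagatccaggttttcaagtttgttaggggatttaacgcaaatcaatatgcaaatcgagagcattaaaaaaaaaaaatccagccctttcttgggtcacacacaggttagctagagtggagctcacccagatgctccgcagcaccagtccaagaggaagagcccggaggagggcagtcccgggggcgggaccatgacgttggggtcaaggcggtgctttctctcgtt
Bnip3: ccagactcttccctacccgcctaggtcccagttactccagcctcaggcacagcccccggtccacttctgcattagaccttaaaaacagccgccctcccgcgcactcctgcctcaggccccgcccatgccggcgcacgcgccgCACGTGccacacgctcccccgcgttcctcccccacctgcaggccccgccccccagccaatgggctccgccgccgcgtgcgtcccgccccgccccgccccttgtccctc
Slc16a3: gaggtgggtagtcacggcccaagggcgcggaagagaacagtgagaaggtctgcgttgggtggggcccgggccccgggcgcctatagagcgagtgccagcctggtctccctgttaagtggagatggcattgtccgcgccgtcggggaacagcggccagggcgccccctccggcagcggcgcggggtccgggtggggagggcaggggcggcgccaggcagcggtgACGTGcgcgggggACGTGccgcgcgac
Pgk1: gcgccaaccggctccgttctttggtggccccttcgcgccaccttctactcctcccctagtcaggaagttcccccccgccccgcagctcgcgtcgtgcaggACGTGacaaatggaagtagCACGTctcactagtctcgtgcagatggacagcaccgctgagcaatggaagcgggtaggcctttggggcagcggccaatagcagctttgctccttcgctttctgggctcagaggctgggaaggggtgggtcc
Pfkfb4: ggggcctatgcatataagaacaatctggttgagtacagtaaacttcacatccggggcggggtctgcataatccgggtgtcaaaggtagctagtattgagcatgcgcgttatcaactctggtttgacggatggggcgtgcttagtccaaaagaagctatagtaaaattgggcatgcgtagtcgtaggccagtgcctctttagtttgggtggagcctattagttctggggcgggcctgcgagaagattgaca

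RefSeq promoters running from 250 bases before to 50 bases after the start were matched for 31 of the 33 members. On either strand, ACGTG occurred in 18 of these 31 (58.1%), against 5315 of 27025 promoters of the same length (19.7%). The related letters GCGTG occurred in 18 of 31 (58.1%), against 8772 of all promoters (32.5%). The 2 motifs can overlap where CACGTG or similar letters meet. Such a match describes the letters of the window and is no evidence of binding.

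The libraries held 7490 (control), 8517 (scratch-negative) and 9504 (scratch-positive) barcodes, of which 6178, 7590 and 8425 were kept as cells. The scratch-positive library was deeper, with a median of 36354 unique molecular identifiers (UMIs, counted RNA molecules) per kept cell, against 8871.5 in the control and 11245.5 in the scratch-negative library. Pairs of libraries shared 16 to 30 barcodes, at most 0.352% of the smaller library. Levels are given as CPM, the UMIs of a gene scaled by all UMIs summed over the cells of a class, with no correction for gene length. A difference was called where the ratio of CPM was at least 1.5-fold and its exact 95% binomial interval lay wholly on 1 side of 1. Such intervals cover counting error only, not the spread between animals.

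Of 28 clusters, 6 stayed unnamed under the marker rule, and 3 of these held enough cells to be described by their leading genes. The fibroblast/periosteal-like class held 48 control, 189 scratch-negative and 111 scratch-positive cells. A second mesenchymal cluster, led by Crabp1, Tagln, Rarres2, Gzme and Ndufa4l2, held 0, 357 and 305 cells. Under the marker rule 8 of 10 fibroblast markers were detected in it. Acta2, a smooth muscle marker, was among its leading genes and no fibroblast marker was, so it is called the Crabp1/Tagln-led cells. The tumour-like class held 0, 206 and 3786 cells and the monocyte/macrophage-like class 395, 722 and 913. The other classes used below are osteoclast-like (25, 83 and 873 cells), neutrophil-like (4545, 4523 and 1568), a neutrophil-gene-rich cluster led by Ccl3 and Ccl4 (5, 409 and 455), and a bone-forming cluster led by Bglap and Bglap2 (82, 169 and 33).

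Summed over the 33 genes, the module was highest in the Crabp1/Tagln-led cells of the scratch-negative library, at 13007 CPM, and stood at 6838 CPM in the same cluster of the scratch-positive library. Tumour-like cells followed, with 11550 CPM in the scratch-negative and 10907 CPM in the scratch-positive library. Fibroblast/periosteal-like cells had low sums, 2753 (control), 3365 (scratch-negative) and 4135 CPM (scratch-positive). Monocyte/macrophage-like cells held 4251, 5511 and 7357 CPM in the same order. Osteoclast-like cells held 6147 (scratch-negative) and 7671 CPM (scratch-positive), and neutrophil-like cells 4481, 4772 and 5486 CPM. The 15 glycolytic enzymes carried most of each sum, 73.3% in the scratch-negative Crabp1/Tagln-led cells and 91.5% in scratch-negative tumour-like cells.

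**Figure D1:**
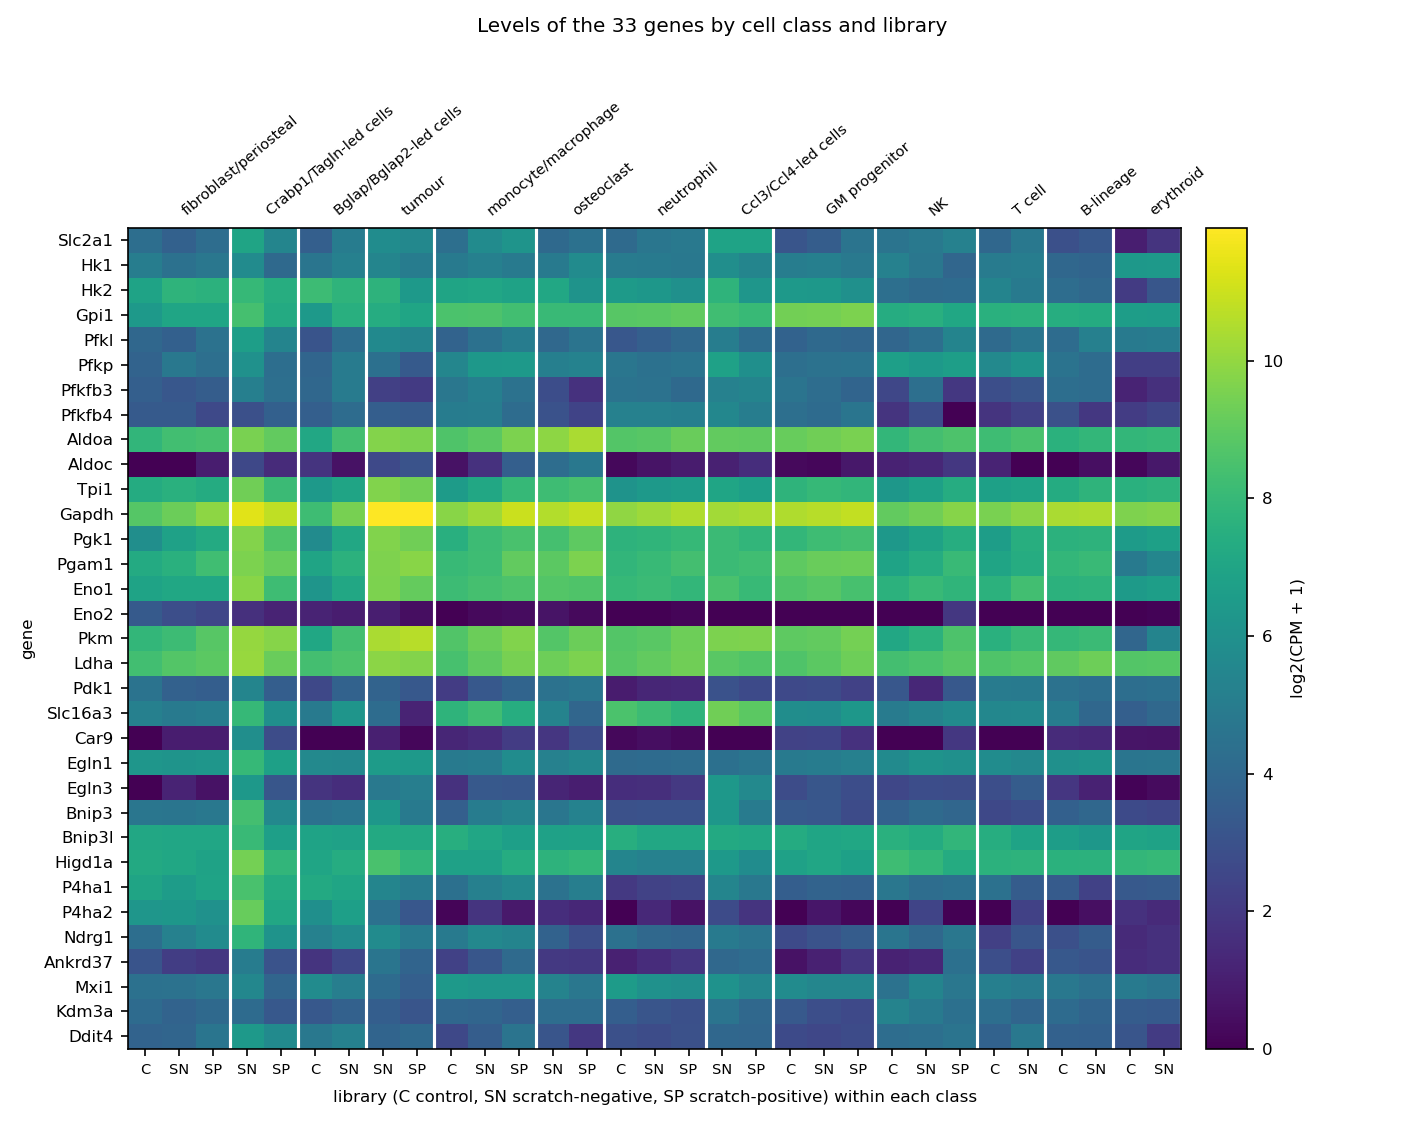
Heat map of log2(CPM + 1) for the 33 genes (rows) in each class with at least 40 cells, with the libraries side by side (C control, SN scratch-negative, SP scratch-positive). The scratch-negative Crabp1/Tagln-led column is bright for Car9 (57.6 CPM), a gene at or under 5.94 CPM in every other column.

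The Crabp1/Tagln-led cells differed most between the tumour-bearing libraries: 27 of 33 members were lower and 1 was higher in the scratch-positive library. Over all 13378 genes tested there, 15.6% were called lower and 14.8% higher. The median log2 ratio was -1.33 for the members and 0.08 for all genes. The control library had no cell of this cluster, so no tumour-free value exists for it.

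RNA of the genes for glucose entry and trapping was higher in the scratch-negative cells. Slc2a1, the glucose transporter GLUT1, was at 125 CPM in the scratch-negative and 42.3 CPM in the scratch-positive library, 2.95-fold lower (95% interval 2.65 to 3.28). Hk2, the inducible hexokinase, was at 256 and 170 CPM, 1.51-fold lower (1.42 to 1.60), just past the 1.5-fold limit. Hk1, the housekeeping hexokinase, was 3.29-fold lower, so that Hk2 made up 83.1% of Hk1 and Hk2 UMIs in the scratch-negative and 91.5% in the scratch-positive cells. Both phosphofructokinase members were lower in the scratch-positive cells: Pfkp, the platelet type, was at 65.5 and 19.2 CPM (3.42-fold, 2.93 to 4.02), and Pfkl, the liver type, at 103 and 41.0 CPM.

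The other glycolytic enzymes ranged from Eno1 to 5 members that were not called. Eno1, enolase, was at 890 CPM in the scratch-negative and 298 CPM in the scratch-positive cells (2.98-fold lower). Tpi1, triose phosphate isomerase, was 2.26-fold and Gpi1, glucose phosphate isomerase, 2.22-fold lower. Pgk1, phosphoglycerate kinase, was at 838 and 405 CPM, 2.07-fold lower (1.996 to 2.14). Ldha, which makes lactate from pyruvate, was at 1096 and 595 CPM, 1.84-fold lower (1.79 to 1.90). Gapdh stood at 2677 and 1789 CPM, a ratio of 1.496 that missed the 1.5-fold limit, and Aldoa, Pgam1, Pkm and Eno2 were not called either. Aldoc, at 4.97 and 1.80 CPM, was 2.77-fold lower. The enolase UMIs may be split with Eno1b, a near-identical retrogene, which was at 5.89 and 1.90 CPM.

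The HIF targets outside the glycolytic chain held the largest differences. Car9, a cell-surface carbonic anhydrase that handles acid, was at 57.6 CPM in the scratch-negative and 5.79 CPM in the scratch-positive cells, 9.95-fold lower (7.62 to 13.2). Egln3, an oxygen-sensing prolyl hydroxylase that is itself a HIF target, was at 80.0 and 8.08 CPM, 9.90-fold lower (7.90 to 12.6). Bnip3, a receptor for the removal of mitochondria, was at 332 and 47.0 CPM, 7.07-fold lower (6.43 to 7.79). The related Bnip3l was 2.54-fold and Egln1, the main oxygen sensor of the family, 2.39-fold lower. Bnip3 therefore made up 55.1% of the Bnip3 and Bnip3l UMIs in the scratch-negative and 30.6% in the scratch-positive cells, and Egln3 made up 23.7% and 6.98% of the Egln1 and Egln3 UMIs.

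Slc16a3, the lactate exporter MCT4, was at 254 and 60.8 CPM in the scratch-negative and scratch-positive cells, 4.18-fold lower (3.83 to 4.56). Pdk1, the kinase that shuts pyruvate out of the citric acid cycle, was at 42.0 and 10.9 CPM, 3.86-fold lower (3.15 to 4.79). Both members that encode alpha subunits of collagen prolyl hydroxylase also differed. P4ha2 was at 561 and 140 CPM (3.997-fold lower) and P4ha1 at 362 and 162 CPM (2.23-fold lower, 2.11 to 2.36). Ndrg1, a stress-response gene, was at 219 and 68.9 CPM, 3.18-fold lower (2.93 to 3.46). Higd1a, a mitochondrial hypoxia-induced protein, was 2.999-fold lower, Ankrd37 4.33-fold, Mxi1, a MYC antagonist, 3.20-fold and Ddit4, an inhibitor of mTOR signalling, 1.69-fold.

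Pfkfb4, which sets the level of the phosphofructokinase activator fructose bisphosphate, was the 1 member called higher in the scratch-positive cells, at 6.53 (scratch-negative) and 11.5 CPM, 1.76-fold (1.32 to 2.34). Its relative Pfkfb3 was lower there, at 34.3 and 19.4 CPM. Of the 25 members called lower whose promoter was matched, 16 (64.0%) held ACGTG, and of the other 6 with a promoter 2 (33.3%) did. The Car9, Egln3, Bnip3 and Slc16a3 promoters printed above are among these 16. Pdk1, Pfkp, Hk1, Mxi1 and Eno1 were also called lower, and their promoters held no ACGTG. Whether the motif bears on the differences was not tested.

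**Figure D2:**
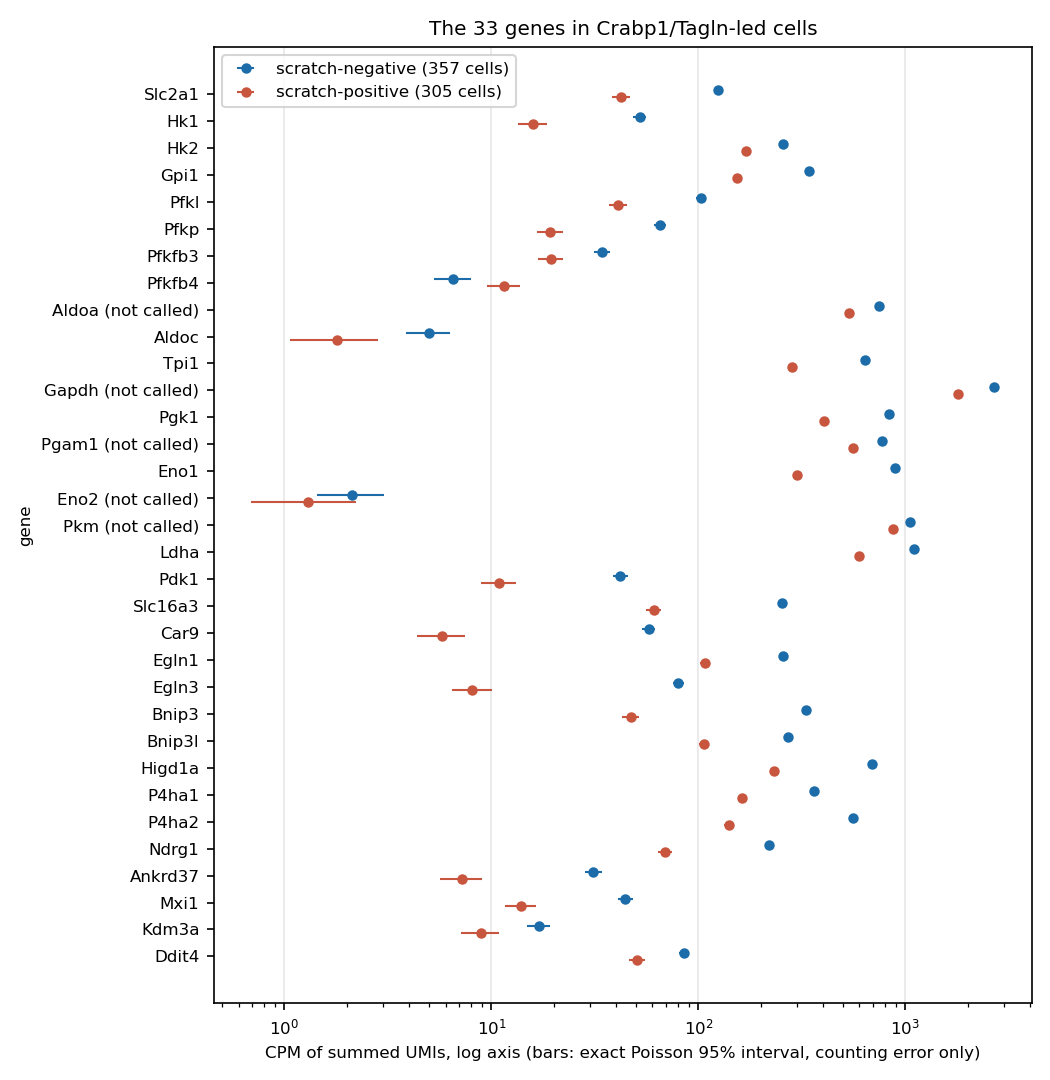
Level of each of the 33 genes in the Crabp1/Tagln-led cells, on a log axis in CPM, with exact Poisson 95% intervals for the scratch-negative (357 cells, blue) and scratch-positive (305 cells, red) libraries. The blue points lie to the right for 32 of 33 genes, and the gap is widest for Car9, Egln3 and Bnip3.

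Other genes of the response, from lists outside the module, differed in the same cells. Of 27 other hypoxia-induced genes tested, 19 were lower in the scratch-positive library and 0 higher. Vldlr, a lipoprotein receptor, was at 58.3 (scratch-negative) and 2.99 CPM, and Ppp1r3c, a glycogen-synthesis regulator, had 13 UMIs in the scratch-negative and 0 in the scratch-positive cells. Both low-oxygen subunits of the respiratory chain were lower, Ndufa4l2 at 900 and 111 CPM and Cox4i2 at 45.7 and 1.40 CPM. Of 7 regulators, 4 were lower, among them Vhl, the von Hippel-Lindau gene (26.4 and 13.3 CPM), and Cited2, which restrains HIF (86.1 and 43.9 CPM).

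Mitochondrial and cell-cycle genes went the other way in the Crabp1/Tagln-led cells. Of 22 respiratory chain genes, 9 were higher in the scratch-positive library and 0 lower, among them Ndufs8 (67.4 CPM scratch-negative, 132 CPM scratch-positive). Of 16 citric acid cycle genes, 5 were higher and 0 lower, led by Idh3a (29.4 and 52.6 CPM) and Sucla2 (25.1 and 44.5 CPM). Of 13 proliferation genes, 8 were higher and 0 lower, among them Cdk1 (47.7 and 101 CPM) and Ccnb1 (17.0 and 35.8 CPM). Of 25 other glycolysis and pyruvate genes, 5 were higher, led by Pgam2 (0.284 and 4.59 CPM) and Ldhb (9.01 and 26.3 CPM), and 5 lower, among them Hk3 (8.66 and 0.80 CPM). Of 12 dissociation and stress genes, 7 were lower in the scratch-positive cells and 0 higher, led by Fosb (889 and 284 CPM) and Dnajb1 (382 and 161 CPM).

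Other RNAs moved with this difference. Neutrophil marker genes, all 12 of which had UMIs in both libraries, summed to 32856 CPM in the scratch-negative and 2779 CPM in the scratch-positive Crabp1/Tagln-led cells, and fibroblast markers to 44423 and 24836 CPM. Acta2 was at 1200 and 6038 CPM. In scratch-negative neutrophil-like cells Car9 was at 0.371, Egln3 at 2.02 and P4ha2 at 1.57 CPM, far under the 57.6, 80.0 and 561 CPM of the Crabp1/Tagln-led cells. Once neutrophil RNA was taken off in proportion to the granule genes Ngp, Camp and Ltf, 28 members were lower and 1 was higher. The shares of all genes under that setting are not reported here.

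The cells of this cluster were not alike within the scratch-negative library. The summed level of the 33 genes per cell ran from 4937 CPM at the tenth percentile through a median of 14301 to 23233 CPM at the ninetieth in the scratch-negative cells, against 4249, 5901 and 10186 CPM in the scratch-positive cells. The low ends were close and the upper ends far apart. Car9 had a UMI in 32.8% of scratch-negative and 5.90% of scratch-positive cells. After thinning every cell to 3000 UMIs those shares were 14.1% and 1.33%, against 0.0853% in scratch-negative neutrophil-like cells.

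Subclusters made without the 33 genes and without the other pathway lists separated the high cells. The 3 with the highest sums held almost only scratch-negative cells. One led by Serpinb2 and Pgf (62 scratch-negative and 3 scratch-positive cells) summed to 20692 CPM, 1 led by Galnt6 and Ndufa4l2 (55 and 7) to 19586 CPM, and 1 led by Thbs4 (61 and 0) to 16293 CPM in the scratch-negative library. In these 3 subclusters Bnip3 was at 728, 545 and 554 CPM and Egln3 at 231, 123 and 121 CPM, while Bnip3 was at 48.0 to 229 CPM and Egln3 at 1.54 to 64.2 CPM in the other scratch-negative subclusters. The subclusters made up mostly of scratch-positive cells, led by Gzmd and Mcpt8 (2 and 92 cells) and by Mmp13 (0 and 69), summed to 6652 and 5917 CPM.

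Where a subcluster held at least 10 cells of each library, the libraries were closer. In these 5 subclusters the scratch-positive to scratch-negative ratio of the summed members ran from 0.658 to 1.10, and was above 1 in 1 of them. That subcluster, led by Gas6 and Ereg, held 65 and 25 cells with sums of 8281 and 9090 CPM. No subcluster held 40 cells in both libraries, so no gene was called within one. The subcluster led by neutrophil genes (58 and 11 cells, S100a8 at 53104 and 13782 CPM) summed to 11004 and 7241 CPM, and without it the counts of called members kept within 1.5 times.

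**Figure D3:**
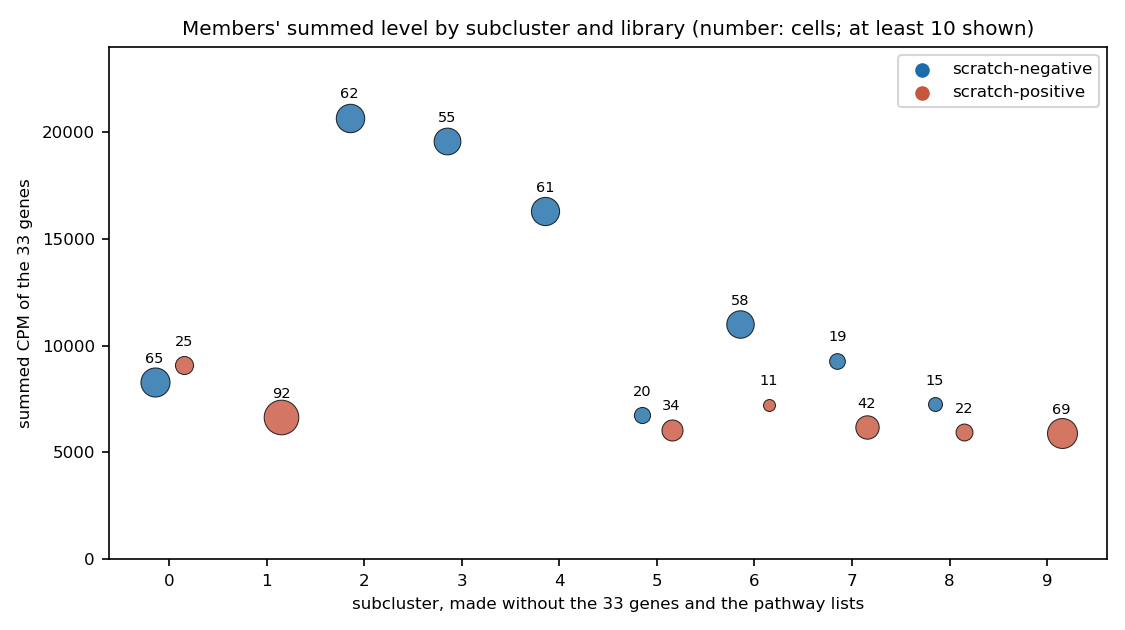
Summed CPM of the 33 genes in each subcluster of the Crabp1/Tagln-led cells, scratch-negative in blue and scratch-positive in red, with circle area and the printed number giving the cells. The 3 highest blue circles, at 16293, 19586 and 20692 CPM, have no red partner of at least 10 cells.

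Within single libraries the members also moved together from cell to cell. Across the 357 scratch-negative Crabp1/Tagln-led cells the median Pearson correlation of log-normalised levels was 0.50 over 55 pairs of HIF targets and 0.71 over 36 pairs of glycolytic enzymes, and it was -0.27 over 242 pairs of a HIF target with a respiratory chain gene. In the scratch-positive cells the same medians were 0.30, 0.50 and -0.12. In scratch-negative tumour-like cells the first 2 were 0.44 and 0.51, and in scratch-positive tumour-like cells 0.09 and 0.32. For pairs of HIF targets the medians in fibroblast/periosteal-like, osteoclast-like and neutrophil-like cells were between 0.001 and 0.060. These are descriptions across cells of 1 library, which share depth and free RNA.

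Fibroblast/periosteal-like cells gave a different picture, with few called members and several glycolytic enzymes higher in the tumour-bearing libraries. Against the control, 4 of 30 members were higher and 0 lower in the scratch-negative library, where 5.59% of all tested genes were called higher and 6.65% lower. In the scratch-positive library 9 of 30 were higher and 0 lower against the control (all genes 9.25% and 13.3%). Between the tumour-bearing libraries 5 of 30 were higher and 0 lower in the scratch-positive cells (all genes 5.59% and 12.8%). The median log2 ratios of the members were 0.03, 0.06 and 0.19 in these comparisons, against 0.00, -0.07 and -0.09 for all genes.

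Ndrg1 was at 18.8, 37.2 and 52.7 CPM in the fibroblast/periosteal-like cells, with libraries ordered as control, scratch-negative, scratch-positive, 1.98-fold and 2.81-fold over the control. Pgk1 was at 58.1, 114 and 153 CPM (1.96-fold and 2.64-fold) and Hk2 at 122, 213 and 201 CPM (1.75-fold and 1.65-fold). Gapdh was at 433, 600 and 943 CPM and was called only against the scratch-positive library, 2.18-fold over the control. Each of these genes was lowest in the control cells. Ldha stood at 313, 423 and 488 CPM and Gpi1 at 84.4, 129 and 127 CPM, the latter called in both comparisons with the control, and Ldha in the scratch-positive library.

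Most HIF targets of the acid, mitochondrial and oxygen-sensing groups were not called in the fibroblast/periosteal-like class. Car9 was at 0, 0.938 and 0.958 CPM and Egln3 at 0, 1.25 and 0.479 CPM, each from at most 4 UMIs, and was too rare to test. Bnip3 was at 24.4, 24.1 and 26.3 CPM, Slc16a3 at 35.6, 28.1 and 32.6 CPM and Slc2a1 at 18.8, 12.2 and 18.2 CPM. P4ha1 stood at 124, 96.0 and 118 CPM, Pdk1 at 22.5, 12.2 and 11.0 CPM and Pfkp at 13.1, 26.3 and 19.6 CPM. With 48 control cells, simulated 2-fold increases were called in only 56.0% of genes and 2-fold decreases in 40.8%. Moderate differences were thus often not detectable at this depth. Between the tumour-bearing libraries the called members were Pfkl (11.6 scratch-negative, 21.5 CPM scratch-positive, 1.86-fold), Ddit4 (13.8 and 23.9, 1.74-fold), Pgam1 (188 and 313, 1.67-fold), Gapdh (1.57-fold) and Pkm, pyruvate kinase (292 and 451, 1.55-fold).

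The class boundary decided this result. When the cells were clustered without the 33 genes and the pathway lists, or when the Crabp1/Tagln-led cells were added to the class, 28 or 27 of 33 members were higher in the scratch-negative library than in the control (all genes 7.95% and 7.80%). Under both settings 26 were lower in the scratch-positive than in the scratch-negative library (all genes 16.5% and 16.1%). The settings make nearly the same change. Without the pathway genes, a cluster of 357 scratch-negative and 305 scratch-positive cells, led by Rarres2, Crabp1 and Tagln, took the fibroblast/periosteal name. The low sums of the class therefore hold for cells outside the Crabp1/Tagln-led cluster. Neutrophil markers summed to 37947, 49083 and 10431 CPM in the class (12 of 12 with UMIs in each library), and with neutrophil RNA taken off 8 members were higher in the scratch-positive than in the scratch-negative cells (all genes 5.14%). Proliferation genes were higher against the control for 9 of 13 in each tumour-bearing library, with 0 and 1 lower.

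In the Bglap/Bglap2-led cells, whose leading genes encode osteocalcin, 13 of 29 members were higher and 1 lower in the scratch-negative library than in the control, where 7.67% of all genes were called higher and 12.8% lower. Slc2a1 was at 11.2 (control) and 31.3 CPM (scratch-negative), 2.79-fold (1.38 to 6.36). Pgk1 was at 52.4 and 140.5 CPM, 2.68-fold (1.94 to 3.80). Gapdh was at 294 and 704 CPM (2.39-fold) and Pfkp at 13.7 and 29.8 CPM (2.17-fold). Most of the 13 were steps of glycolysis, and Mxi1, at 52.4 and 33.7 CPM, was the 1 lower member.

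Among HIF targets with large differences elsewhere, Slc2a1 and Slc16a3 were called in the Bglap/Bglap2-led cells. Several others were not called or were too rare to test. Bnip3 was at 21.2 and 24.1 CPM, and Car9 had 0 UMIs in both, which allows up to 3.74 and 1.44 CPM. Egln3, at 2.50 and 1.92 CPM, had too few UMIs to test. Hk2 was at 293 and 214 CPM, Ldha at 332 and 391, Pdk1 at 4.99 and 12.5, P4ha1 at 148 and 130 and Ndrg1 at 37.4 and 53.4 CPM, none of them called. Slc16a3 was at 28.7 and 74.1 CPM, 2.58-fold higher, but neutrophil markers, 12 of 12 with UMIs, summed to 21691 and 108005 CPM in the same cells. After that RNA was taken off, the log2 ratio of Slc16a3 was -0.54 in place of 1.36, while 15 members were higher and 1 lower. Shares of all genes under that setting are not reported here. Proliferation genes were higher for 11 of 13.

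In tumour-like cells, 10 of 33 members were lower and 0 higher in the scratch-positive than in the scratch-negative library, where 12.4% of all genes were called lower and 3.36% higher. The median log2 ratio was -0.35 for the members and 0.02 for all genes. Several glycolytic genes were not called over the whole class. Gapdh was at 3793 (scratch-negative) and 3895 CPM (scratch-positive), Ldha at 931 and 846 CPM, Pgk1 at 819 and 654 CPM and Slc2a1 at 54.4 and 46.3 CPM. Hk2 was lower, at 205 and 84.4 CPM, 2.43-fold (2.34 to 2.53), and Pfkp was at 20.1 and 9.35 CPM, 2.15-fold. Hk2 made up 83.1% and 73.1% of the Hk1 and Hk2 UMIs.

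Bnip3 was at 77.4 and 28.3 CPM in scratch-negative and scratch-positive tumour-like cells, 2.73-fold lower (2.56 to 2.91), and P4ha2 at 21.0 and 8.57 CPM, 2.45-fold lower. Ndrg1 was at 52.8 and 28.2 CPM, 1.87-fold lower. Egln3 was not called, at 27.5 and 32.8 CPM, unlike in the Crabp1/Tagln-led cells, and the difference between these classes was not tested. Pdk1 stood at 13.1 and 8.88 CPM and P4ha1 at 41.5 and 29.7 CPM. Car9 was low in both libraries, at 1.06 and 0.164 CPM from 15 and 41 UMIs, 6.43-fold lower (3.31 to 11.9). Slc16a3 was at 17.8 and 1.28 CPM, 13.9-fold lower (11.8 to 16.5).

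Slc16a3 was also an abundant transcript of scratch-negative neutrophil-like cells, at 287 CPM, and neutrophil markers summed to 27029 CPM in scratch-negative and 1087 CPM in scratch-positive tumour-like cells. With neutrophil RNA taken off 11 members were lower and 0 higher, and the shares of all genes under that setting are not reported here. The granule genes Ngp, Camp and Ltf stood at 5.71% of their neutrophil level in the scratch-negative and at 0.202% in the scratch-positive tumour-like cells. How much of the Slc16a3 difference was neutrophil RNA was not tested. Fibroblast markers summed to 419 and 313 CPM, with Col1a1 at 69.2 and 21.5 CPM. Of the 206 scratch-negative tumour-like cells, 154 lay in 1 cluster without a tumour marker among its leading genes, whose member sum was 10808 CPM in the scratch-negative and 11090 CPM in the scratch-positive library. Within that cluster 5 of 32 members were lower and 1 higher (all genes 9.30% and 3.53%). Without it 52 scratch-negative cells were left, and 25 of 33 members were lower (all genes 11.2%) with a median log2 ratio of -0.79. When clustering left out the pathway genes 25 were lower (all genes 11.3%), from 53 scratch-negative cells. That is largely the same change, because a cluster led by Prl2c3 and Ly6c1, as this one was, then fell outside the class. In the cluster with the most scratch-positive tumour-like cells, 27 scratch-negative cells summed to 16159 CPM and 1751 scratch-positive cells to 10996 CPM. The values over the whole class thus rest mainly on the 154 cells. Of 26 other hypoxia-induced genes 10 were lower and 1, Stc1, was higher, with Adm (0.704 and 0.052 CPM) and Slc2a3 (6.40 and 1.01 CPM) lowest. No citric acid cycle or respiratory chain gene was called of 16 and 22.

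**Figure D4:**
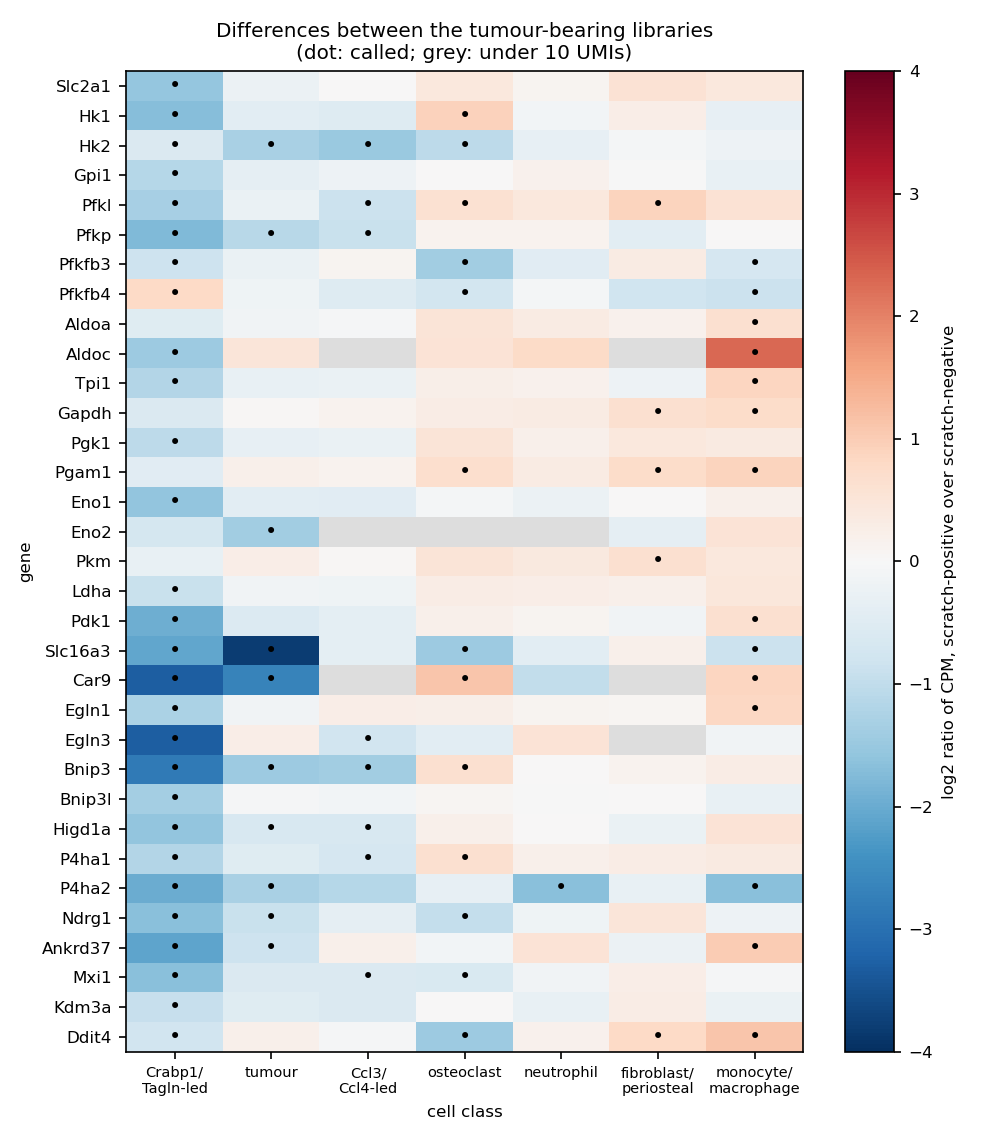
Log2 ratio of CPM between the scratch-positive and scratch-negative libraries for the 33 genes (rows) in 7 classes (columns), blue where lower and red where higher in the scratch-positive library, with a dot at each called gene and grey where UMIs were under 10. The Crabp1/Tagln-led column is blue for 32 of 33 genes, while the monocyte/macrophage column holds 10 called red and 4 called blue genes.

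Monocyte/macrophage-like cells had more called members against the control than the share over all genes, in a class whose makeup differed between the libraries. Against the control, 14 of 32 members were higher and 0 lower in the scratch-negative library (all genes 10.2% and 7.84%), and 19 of 32 were higher and 2 lower in the scratch-positive library (all genes 28.4% and 11.7%). Between the tumour-bearing libraries 10 of 33 were higher and 4 lower in the scratch-positive cells, where 29.2% of all genes were called higher and 10.2% lower. That share of higher members, 10 of 33, was near the share of all genes. The median log2 ratios of the members were 0.54, 0.99 and 0.36, against -0.05, 0.24 and 0.25 for all genes.

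Slc2a1 was at 19.6, 53.2 and 71.0 CPM in control, then scratch-negative, then scratch-positive monocyte/macrophage-like cells, 2.72-fold and 3.63-fold over the control. Pgk1 was at 185, 285 and 365 CPM (1.54-fold and 1.97-fold) and Pfkp at 43.3, 82.1 and 83.3 CPM (1.89-fold and 1.92-fold). Gapdh, at 900, 1213 and 2038 CPM, and Ldha, at 353, 512 and 703 CPM, were called over the control in the scratch-positive library alone. Hk2 was at 124, 133 and 115 CPM and was not called in any of these comparisons. The enzymes thus did not follow 1 pattern.

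Bnip3 was at 11.1, 31.4 and 38.9 CPM, 2.82-fold and 3.50-fold over the control, and Egln3 at 2.30, 9.22 and 8.32 CPM, 4.01-fold and 3.61-fold. Pdk1 was at 3.32, 8.72 and 13.5 CPM, and P4ha1 at 19.9, 35.5 and 45.7 CPM, both called in each tumour-bearing library against the control. Ndrg1 was at 28.8, 46.7 and 40.6 CPM and was called in the scratch-negative library, 1.62-fold. Car9 was rare, at 1.41, 1.83 and 3.37 CPM, and was called higher in the scratch-positive library against the others. Aldoc, the brain-type aldolase, was at 0.511, 2.28 and 11.2 CPM, Ddit4 at 4.99, 10.6 and 23.0 CPM and Ankrd37 at 3.96, 8.22 and 16.6 CPM, each highest in the scratch-positive cells.

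Some members of the monocyte/macrophage-like class were lower in the scratch-positive library. Slc16a3 was at 214, 311 and 172 CPM, 1.81-fold lower in the scratch-positive than in the scratch-negative cells. Pfkfb4 was at 30.7, 32.1 and 17.7 CPM (1.81-fold) and Pfkfb3 at 25.4, 33.9 and 21.5 CPM (1.58-fold). P4ha2 was at 0.128 (1 UMI), 2.45 and 0.749 CPM, a ratio of 19.1 over the control with an interval of 3.26 to 772. Col1a1, a collagen gene of the fibroblast list, was at 12.1, 70.8 and 27.1 CPM in these cells, in the same order as P4ha2. The Bnip3l level, 178, 132 and 107 CPM, was 1.67-fold lower in the scratch-positive cells than in the control.

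The difference in makeup had several parts. A cluster led by F13a1 and Ccr2 held 271 of its 395 control cells but 141 and 65 of the tumour-bearing cells, the rest lying in a cluster led by C1qb and C1qa. Within the first cluster, 1 of 29 members was higher and 0 lower in the scratch-negative library than in the control (all genes 3.81% and 4.66%). In the scratch-positive library 9 of 28 were higher and 1 lower there (all genes 9.10% and 6.99%). In the second, 58 of 124 control cells lay in a subcluster led by Elane, Prtn3 and Mpo, genes of granulocyte-monocyte progenitors, and 37 in 1 led by Fcnb and Ear2. The granule genes Ngp, Camp and Ltf stood at 90.4% of their neutrophil level in the control cells of this cluster, at 63.6% in the scratch-negative and at 27.6% in the scratch-positive cells, so comparisons with the control there set unlike mixtures side by side. Within the Elane-led subcluster, 1 of 29 members was higher and 1 lower in the scratch-negative library than in the control (all genes 4.52% and 5.41%). The summed level in the scratch-negative library was 1.02 to 1.15 times the control's in the 2 subclusters that could be compared. For the scratch-positive library it was 1.53 times the control's in the 1 subcluster with at least 10 cells in both. In the scratch-positive library the summed level of the members was higher than in the scratch-negative library in 10 of 10 of its subclusters with at least 10 cells in both, with ratios from 1.07 to 1.41.

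Neutrophil markers, 12 of 12 with UMIs, summed to 272343, 297732 and 133552 CPM in the class, and the granule genes stood at 63.4%, 59.9% and 27.1% of their neutrophil level. With neutrophil RNA taken off, 22 members were higher in the scratch-negative library than in the control (all genes 20.3%). In control cells of the C1qb-led cluster this took the summed members from 4177 to 1346 CPM. The setting counts all granule-gene RNA as neutrophil RNA, so it cannot tell carried RNA from that of the cells themselves. Between the tumour-bearing libraries 6 were then higher and 10 lower (all genes 16.4% and 20.9%). Citric acid cycle genes were higher for 12 of 16 and respiratory chain genes for 16 of 22 in the scratch-positive against the scratch-negative cells, with 0 lower. Of 22 other hypoxia-induced genes 9 were higher and 0 lower in the scratch-negative library than in the control, among them Tgfbi at 150 (control) and 441 CPM.

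**Figure D5:**
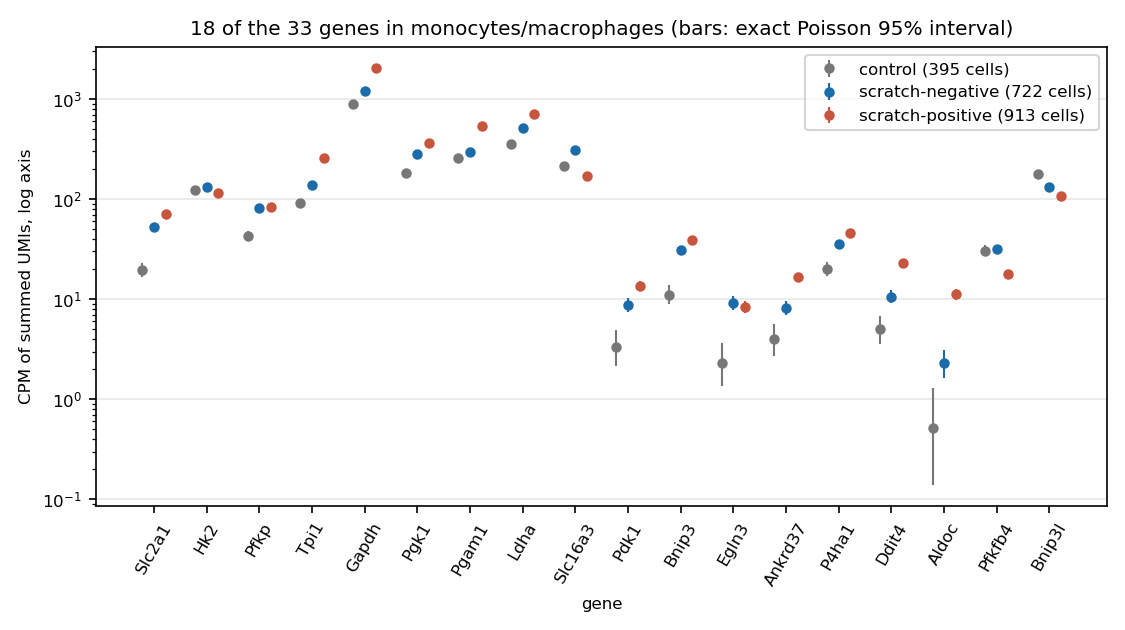
Levels of 18 of the 33 genes in monocyte/macrophage-like cells, in CPM on a log axis with exact Poisson 95% intervals, for the control (grey), scratch-negative (blue) and scratch-positive (red) libraries. Slc2a1 (19.6, 53.2 and 71.0 CPM) and Bnip3 (11.1, 31.4 and 38.9 CPM) step up through the libraries, while Hk2 stays between 115 and 133 CPM.

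Osteoclast-like cells, the bone-resorbing cells, most of which came from the scratch-positive library, had 6 of 32 members higher and 7 lower there than in the scratch-negative library, where 7.91% of all genes were called higher and 10.1% lower. Car9 was at 2.73 (scratch-negative) and 5.94 CPM (scratch-positive), 2.18-fold (1.16 to 4.61), Hk1 at 27.9 and 53.0 CPM, 1.90-fold, and Pgam1, phosphoglycerate mutase, at 479 and 759 CPM, 1.59-fold. P4ha1 was at 21.6 and 33.7 CPM, Bnip3 at 24.3 and 37.8 CPM and Pfkl at 15.3 and 23.5 CPM, all called higher. Ddit4 was at 7.92 and 2.85 CPM (2.78-fold lower), Slc16a3 at 39.6 and 14.5 CPM (2.72-fold) and Pfkfb3 at 6.01 and 2.29 CPM (2.62-fold).

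The hexokinases went opposite ways in osteoclast-like cells. Hk2 was at 141 and 68.1 CPM, 2.07-fold lower (1.88 to 2.28), and made up 83.5% (95% interval 80.4 to 86.4) of the Hk1 and Hk2 UMIs in the scratch-negative and 56.2% (54.7 to 57.8) in the scratch-positive cells. Ndrg1 was at 12.3 and 6.34 CPM, 1.94-fold lower. Slc2a1 (15.8 and 21.1 CPM), Gapdh (1525 and 1883), Pgk1 (344 and 495), Ldha (621 and 760), Pdk1 (21.6 and 24.7), Pfkp (34.1 and 37.8) and Egln3 (1.37 and 1.02) were not called. Neutrophil markers, 12 of 12 with UMIs, summed to 54738 and 9320 CPM in these cells. After taking neutrophil RNA off 4 members were higher and 3 lower (8.17% of all genes lower), and the log2 ratio of Slc16a3 was 0.57 in place of -1.44. The share of all genes called higher under that setting is not reported here.

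Neutrophil-like cells had few called members over the whole class. In the scratch-negative library 5 of 32 members were higher and 0 lower than in the control (all genes 5.05% and 7.18%), and in the scratch-positive library 7 of 31 were higher and 4 lower (all genes 13.8% and 13.2%). Scratch-positive against scratch-negative cells gave 0 higher and 1, P4ha2, lower (all genes 9.38% and 3.53%). The clusters of the class were not alike. In the 1 led by Ccl6 and Ifitm1, 8 of 30 members were higher in the scratch-negative (all genes 4.55%) and 13 of 28 in the scratch-positive library (all genes 7.96%) than in the control. In the 1 led by Retnlg and Prok2 those counts were 5 of 30 (all genes 4.38%) and 11 of 29 (all genes 10.3%). In the largest, led by Ltf and Ly6g, they were 2 of 30 (all genes 3.64%) and 2 of 29 (all genes 10.3%).

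Slc2a1 was at 16.7, 25.1 and 27.1 CPM in control, then scratch-negative, then scratch-positive neutrophil-like cells, 1.504-fold and 1.62-fold over the control, and Slc16a3 at 371, 287 and 216 CPM, 1.72-fold lower in the scratch-positive cells. Aldoc (0.199, 0.523 and 0.907 CPM), Ankrd37 (1.11, 1.86 and 2.72 CPM) and Pdk1 (0.852, 1.45 and 1.57 CPM) were called higher in both tumour-bearing libraries at these low levels.

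Egln3 was at 1.96, 2.02 and 2.96 CPM in neutrophil-like cells and P4ha1 at 3.01, 4.03 and 4.60 CPM, both called in the scratch-positive library against the control. Mxi1 (92.9 CPM control, 59.3 CPM scratch-positive), Kdm3a, a histone demethylase (10.8 and 6.41 CPM), and Ndrg1 (21.1, 15.6 and 13.9 CPM in the 3 libraries) were lower there. P4ha2 was at 0.0181 (1 UMI), 1.57 and 0.484 CPM, called higher in the scratch-negative library than in both others, and Col1a1 at 16.2, 83.8 and 31.4 CPM in the same order. Ldha (451, 542 and 645 CPM), Gapdh (993, 1168 and 1477), Pgk1 (206, 220 and 253), Hk2 (90.3, 79.5 and 62.7), Pfkp (24.8, 21.1 and 23.3), Bnip3 (6.73, 6.95 and 7.02) and Car9 (0.199, 0.371 and 0.181) were not called.

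The Ccl3/Ccl4-led cells, in which 8 of 12 neutrophil markers were detected under the marker rule, had module sums of 6251 CPM (scratch-negative) and 5580 CPM (scratch-positive). Single clusters of the neutrophil-like class reached 6275 and 7060 CPM in these libraries. They had median depths of only 3302 and 2526 UMIs. Egln3 was at 80.1 and 47.4 CPM there, against 2.02 and 2.96 CPM in the neutrophil-like class, and made up 80.0% and 66.2% of the Egln1 and Egln3 UMIs. The class was cut by clustering all genes, so this contrast between clusters is a description. In the scratch-positive library 8 of 30 members were lower and 0 higher (all genes 6.07% and 11.2%).

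Hk2 was at 217 (scratch-negative) and 76.8 CPM (scratch-positive) in the Ccl3/Ccl4-led cells, 2.83-fold lower (2.37 to 3.39), Bnip3 at 78.2 and 29.96 CPM, 2.61-fold lower (1.96 to 3.52), and Pfkp at 113 and 60.9 CPM, 1.86-fold lower. Egln3 was 1.69-fold and P4ha1, at 42.6 and 26.6 CPM, 1.60-fold lower. Slc2a1 (119 and 120 CPM), Slc16a3 (641 and 484), Gapdh (1238 and 1354), Pgk1 (278 and 229), Ldha (468 and 416), Pdk1 (7.04 and 5.32) and Ndrg1 (29.7 and 23.2) were not called, and Car9 had 0 UMIs in both.

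In the remaining classes few members were called, apart from NK-like cells of the scratch-positive library against the control. Granulocyte-monocyte progenitor-like cells had 0 of 30 called in the scratch-negative library against the control (all genes 3.52% higher and 3.13% lower), and 4 higher and 3 lower in the scratch-positive library (7.38% and 11.1%), led by Ankrd37 (0.492 and 2.61 CPM) and Slc2a1 (7.75 and 23.0 CPM). There, 2 of 31 were higher and 1 lower in the scratch-positive than in the scratch-negative library (6.36% and 7.63%). NK-like cells had 1 of 25 higher and 0 lower in the scratch-negative library (3.72% and 3.54%), and 7 higher, all glycolytic enzymes, and 1 lower in the scratch-positive library (7.59% and 4.87%), with Pkm at 142 (control) and 387 CPM. Between the tumour-bearing libraries 3 of 25 members were higher and 1 lower in NK-like cells (5.2% and 3.43%). T cell-like cells had 2 of 24 higher and 0 lower in the scratch-negative library (5.65% and 3.68%), B-lineage-like cells 1 higher and 3 lower of 30 (2.06% and 4.57%), and erythroid-like cells 4 higher and 1 lower of 31 (4.87% and 2.69%).

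Tumour RNA was present at a low level outside the tumour-like class of the scratch-positive library. Keratin levels put it at 1.71% to 4.39% of the tumour-like level, which would bring 2.75% to 12.1% of the summed members, the highest share in NK-like cells. In the Crabp1/Tagln-led cells it would bring 0.088% in the scratch-negative and 3.33% in the scratch-positive library. The part of tumour RNA in the NK-like differences was not tested.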

How the data were processed

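Members and gene lists were chosen with earlier results of these data known. The authors deposited UMI counts per gene and cell, whole numbers not normalized, from Cell Ranger 6.1.2 per the file headers. The build mm10 is named in the submitters' processing notes. The chemistry reads the 3′ ends of transcripts, per the labels' protocols.

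Everything else was computed here. Cells had at least 500 genes and at most 10% mitochondrial UMIs. Scrublet scores were ranked and the top 0.8% per 1000 barcodes removed (449, 580 and 723), because the tool's own threshold marked 7, 6 and 648. Cells were clustered with scanpy 1.11.5 (2000 variable genes, 30 components, Leiden resolution 1), and named from marker lists. UMIs were summed per class and library (at least 40 cells) and divided by the class total. Genes with at least 10 UMIs in 2 libraries were compared by the exact conditional binomial interval at 95%, without a test between groups because each had 1 library. Log2 values used a pseudocount of 0.5 UMI, and a floor of 3 UMIs was set for zeros. Precision follows the class totals of UMIs. The rule was tested on simulated data: of 2-fold increases 94.0% were called in the Crabp1/Tagln-led cells (13370 genes) and 90.0% in monocyte/macrophage-like cells (12929 genes). Of 2-fold decreases 89.8% and 79.6% were called in these classes. The simulated counts held counting error only, with no spread between cells or animals.

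All 33 members may be named. Values in every library are given for Slc2a1, Hk2, Pfkp, Gapdh, Pgk1, Ldha, Slc16a3, Pdk1, Bnip3, Egln3, Car9, P4ha1 and Ndrg1, for the 3 highest and 3 lowest called members of a comparison, and for the 2 highest and 2 lowest called genes of each other list, of which some are not reported here. The alternatives were another scaling, no UMI minimum, the tool's own doublet threshold, clustering without the pathway genes, equal weight per cell and the main cluster alone. Added after seeing the data were taking off tumour or neutrophil RNA and moving or leaving out clusters. Plots were drawn with matplotlib 3.10.9, intervals computed with scipy 1.17.1 and numpy 2.4.6, clusters found with igraph 0.11.9 and scikit-learn 1.9.0, and tables handled with pandas 2.3.3 under Python 3.11.15.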

Additional observations from a re-analysis of the deposited data

Results flagged for a closer look

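For 8 members the difference between the scratch-positive and scratch-negative libraries had opposite called directions in the Crabp1/Tagln-led and the monocyte/macrophage-like cells. With 27 of 33 members lower in the first class and 10 of 33 higher in the second, some opposite calls had to arise. Of all genes, 15.6% were lower in the first and 29.2% higher in the second, and the share with opposite calls was not computed. The log2 ratio was -2.11 and 1.01 for Ankrd37, -3.31 and 0.87 for Car9, and -1.95 and 0.63 for Pdk1, in that order of classes. It was -1.18 and 0.87 for Tpi1, -1.26 and 0.82 for Egln1, -0.76 and 1.11 for Ddit4, and -1.45 and 2.29 for Aldoc. Pfkfb4 had the reverse order, 0.81 and -0.86. With 1 library per group the difference between the classes was not tested. With neutrophil RNA taken off, the monocyte/macrophage value of Pdk1 was -0.059.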

How the results depend on the processing

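No paired analysis was possible because each group had 1 library. The counts for the Crabp1/Tagln-led cells stayed within 1.5 times under every alternative run. Depth limits the classes with few cells, among them the control fibroblast/periosteal-like cells. The causes of the changes below were not tested beyond what the settings change by construction. C stands for control, SN for scratch-negative and SP for scratch-positive, and counts are of members higher or lower in the first library named. Percentages in brackets give the share of all tested genes called the same way under the same setting.

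In fibroblast/periosteal-like cells, SN against C gave 4 higher and 0 lower. Clustering without pathway genes gave 28 and 1 (7.95% and 17.6%), and adding the Crabp1/Tagln-led cells 27 and 1 (7.80% and 16.4%). These settings make nearly the same change, because without pathway genes a cluster led by Rarres2, Crabp1 and Tagln took the class name. Equal weight per cell gave 2 and 1 (6.61% and 6.80%). The doublet tool's own threshold gave 1 lower (7.38%), as did neutrophil RNA taken off (6.93%). SP against C gave 9 and 0, but 16 and 2 without pathway genes (12.5% and 21.1%). With the Crabp1/Tagln-led cells it gave 15 and 3 (12.6% and 19.2%). SP against SN gave 5 and 0, but 0 and 26 under both of these settings (10.7% and 16.5%, then 11.4% and 16.1%). Tumour RNA taken off gave 3 higher (5.38%), neutrophil RNA taken off 8 higher (5.14%) and the own threshold 2 lower (14.8%). Without pathway genes the log2 ratios turned to -1.18 for Pfkl, -0.19 for Pkm, -0.47 for Gapdh, -0.34 for Pgam1 and -0.63 for Ddit4, and with the Crabp1/Tagln-led cells to -1.19, -0.20, -0.48, -0.35 and -0.65.

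In monocyte/macrophage-like cells, within the cluster holding most control cells, SN against C gave 1 higher (3.81%), in place of 14 in the class. SP against C gave 9 higher and 1 lower there (9.10% and 6.99%), in place of 19 and 2. In that cluster Ndrg1 (SN against C) turned to -0.30 and Pfkfb4 (SP against C) to 0.20. With neutrophil RNA taken off, 22 were higher in SN against C (20.3%), with the C sum of the C1qb-led cluster cut from 4177 to 1346 CPM. In SP against SN 6 were then higher and 10 lower (16.4% and 20.9%), in place of 10 and 4, and Pdk1 turned to -0.059. Median-of-ratios scaling gave 6 higher in SP against SN (19.7%).

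In neutrophil-like cells, SN against C (5 and 0) gave 8 higher with equal weight (7.16%) and 2 and 2 within 1 cluster (3.64% and 8.39%). SP against C (7 and 4) gave 11 higher with equal weight (19.8%) and 2 higher within 1 cluster (10.3%). It gave 4 higher with tumour RNA taken off (8.80%) and 2 lower with the Ccl3/Ccl4-led cells (10.5%). SP against SN (0 and 1) gave 1 higher with the own threshold (10.4%), without pathway genes (9.59%) and within 1 cluster (8.03%). Equal weight there gave 1 higher and 2 lower (14.6% and 6.48%), and the Ccl3/Ccl4-led cells 2 higher (12.5%).

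In tumour-like cells, SP against SN (0 and 10) gave 23 lower with the own threshold (11.0%) and 25 lower without pathway genes (11.3%). Without the cluster that had no leading tumour marker 25 were lower (11.2%), and within it 1 was higher and 5 lower (3.53% and 9.30%). The own threshold and the clustering without pathway genes also left out a cluster led by Prl2c3, largely the same change. SN cells left were 50 with the own threshold, 53 without pathway genes and 52 without the cluster. In osteoclast-like cells 3 were lower with neutrophil RNA taken off (8.17%), in place of 7, and Slc16a3 turned to 0.57. In Bglap/Bglap2-led cells the 1 lower member became 0 with median-of-ratios scaling (9.11%), the own threshold (10.9%) and clustering without pathway genes (13.4%). With equal weight 3 were lower (19.1%), and Slc16a3 turned to -0.54 with neutrophil RNA taken off. In Ccl3/Ccl4-led cells (0 and 8) the own threshold gave 1 higher and 4 lower (11.5% and 7.54%). Leaving out the UMI minimum moved none of the 28 counts by over 1.5 times.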
